A study of Mus musculus with 15 samples.

Results

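The Notch receptors Notch1, Notch2 and Notch3, the ligands Jag1 and Jag2, the transcription factor Rbpj and the target genes Hes1, Hey1, Hey2 and Heyl were followed in mouse dental mesenchymal cells (mDMCs) as they were taken from the embryo into culture. The genes were chosen by name, and a gene counted where an Ensembl transcript of the deposited table mapped to it. Of the 10 genes, 8 had a row in the table, which held 11960 matched genes in all. Hey2 and Heyl had no row and were not analysed here. The study asked how the transcriptome moves while the cells lose the ability to induce tooth formation.

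mDMCs were single cells of ICR mice, an outbred strain, obtained with dispase and trypsin from the dental mesenchyme of mandibular first molar germs at E14.5. There were 3 libraries of freshly isolated cells (0 h, labelled D0), 2 of cells kept in DMEM with 10% FBS for 12 h (D0.5), 3 each after 24 h (D1), 36 h (D1.5) and 48 h (D2), and 1 library of the dental mesenchyme as tissue, which has no replicate. No allele, transgene or agent beyond the medium is named in the labels. The labels do not say whether libraries of one time point came from separate litters or cultures, so the p-values measure the spread between these libraries, which may be technical. The mesenchyme was parted from the epithelium with dispase and no sorting is described, so cells of other types could remain.

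Notch receptors are single-pass proteins of the cell surface that bind ligands of the Jagged and Delta-like families on neighbouring cells. Binding leads to cleavage of the receptor, first by ADAM proteases and then by gamma-secretase, and the freed intracellular part enters the nucleus, where it joins Rbpj and a Mastermind protein and turns on targets such as the Hes and Hey repressors. In the tooth germ, Notch receptors and Jagged ligands are known from both epithelium and mesenchyme, and Notch signalling also shapes blood vessels, where Dll4 and Notch4 belong to the endothelium.

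Expression was given as a score, a whole number on one normalised scale shared by all libraries, and not as a read count. Every library shares a median of 721 and a maximum of 127101. The number of reads behind a value is unknown. Changes were tested with limma on log2(score + 1), and a gene was called where the Benjamini-Hochberg adjusted p over the 12079 transcripts tested, all 8 genes among them, was below 0.05.

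Several libraries stood apart. In 0 h replicate 3 and 12 h replicate 1 the 447 transcripts longer than 8000 nucleotides were high against the other transcripts of the same library, by a median of 0.82 and 0.70 (log2), where the other libraries lay between 0.23 and 0.51. The transcripts of Notch1, Notch2 and Notch3 are of this length. Replicates 1 and 2 after 36 h differed by a root mean square of only 0.11 (log2), against 0.24 to 0.46 in the other replicate pairs, and may be closer than separate cultures. The epithelial marker sum was 17198 in 0 h replicate 1, against 2191 and 2055 in replicates 2 and 3. All 8 dental mesenchyme markers (among them Msx1, Pax9 and Lhx6) were present in every library, with summed scores between 78814 and 93710 at 0 h, 43749 and 88722 in culture, and 65491 in tissue, a sum led by Prrx1, which was at 70675 in 24 h replicate 3. Of the 8 markers 7 were lower than at 0 h after 12, 36 and 48 h and 6 after 24 h. This stands beside 28.3%, 31.8%, 34% and 34% of all transcripts lower after 12, 24, 36 and 48 h. Among the lower markers was Pdgfra, from 16448 in each library at 0 h to between 2485 and 5100 in culture.

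Promoter sequences were taken from RefSeq (GRCm38.p6), from 250 bases before to 50 after a gene's start. Of the 10 genes, 7 had an entry, and none was given for Hes1, Hey1 and Heyl. They were searched on both strands for TGGGAA, the core of the site that Rbpj binds, and for CACNAG, the N-box that Hes proteins bind. TGGGAA lay in the promoters of 2 of the 7 genes, Rbpj and Hey2, and in 25.6% of all 32851 promoters. CACNAG lay in 3 of the 7, Notch1, Notch2 and Notch3, and in 42.5% of all promoters. The promoters of Jag1 and Jag2 held neither. The Jag2 transcript in the table begins at −281 from the start used, upstream of the whole sequence searched. Shown first are Rbpj and Lfng, a modifier of Notch receptors described further down, since they are the named genes with values whose promoters hold TGGGAA at 2 places, printed in capitals (on the other strand it reads TTCCCA). The Rbpj promoter is at chr5:53590096-53590395 on the plus strand, with matches beginning at −149 and −65, counted from the start, and the Rbpj transcript in the table begins far upstream, at −34512 from that start. The Lfng promoter is at chr5:140607091-140607390 on the plus strand, with matches at −135 and −108.
Rbpj: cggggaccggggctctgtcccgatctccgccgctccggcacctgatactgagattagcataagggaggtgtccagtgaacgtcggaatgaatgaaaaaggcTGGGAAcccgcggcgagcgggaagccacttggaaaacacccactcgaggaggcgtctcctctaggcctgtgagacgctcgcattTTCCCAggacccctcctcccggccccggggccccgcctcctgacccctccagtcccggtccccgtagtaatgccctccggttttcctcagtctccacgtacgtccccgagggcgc
Lfng: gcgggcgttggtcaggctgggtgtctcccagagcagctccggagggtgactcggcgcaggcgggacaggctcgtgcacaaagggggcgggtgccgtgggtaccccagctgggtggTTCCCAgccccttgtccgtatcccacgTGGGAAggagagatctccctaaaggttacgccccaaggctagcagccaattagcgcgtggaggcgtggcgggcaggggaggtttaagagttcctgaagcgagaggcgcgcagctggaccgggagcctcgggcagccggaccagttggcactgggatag

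The promoters of Notch1 and Notch3, those of the chosen genes with more than 1 match to CACNAG, are shown with CACNAG, in either orientation, in capitals. That of Notch1 is at chr2:26503773-26504072 on the minus strand and held 3 matches, at −108, −3 and −1, of which the last pair overlap as one on each strand. That of Notch3 is at chr17:32166841-32167140 on the minus strand and held 2 matches, at −204 and −159. Among the other named pathway genes, Maml3, which was lower in culture, had 1 match to TGGGAA. Matches to CACNAG lay in the promoters of Dll4, Dtx1, Nrarp, Tle2 and Tle3, which were lower, and in those of Lfng (−181) and the first of the listed starts of Dlk2 (−57), which were higher. The measured transcripts of Dtx1 and Tle2 begin at −258 and −726 from these starts, upstream of the sequence searched. That of Tle3 begins at 1051, downstream of it. A match describes the letters and is not evidence of binding.
Notch1: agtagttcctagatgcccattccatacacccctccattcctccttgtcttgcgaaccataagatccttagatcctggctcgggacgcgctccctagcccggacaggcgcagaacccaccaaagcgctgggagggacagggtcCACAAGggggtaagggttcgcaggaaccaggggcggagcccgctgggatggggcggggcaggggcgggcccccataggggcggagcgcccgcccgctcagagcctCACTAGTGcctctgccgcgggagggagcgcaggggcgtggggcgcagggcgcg
Notch3: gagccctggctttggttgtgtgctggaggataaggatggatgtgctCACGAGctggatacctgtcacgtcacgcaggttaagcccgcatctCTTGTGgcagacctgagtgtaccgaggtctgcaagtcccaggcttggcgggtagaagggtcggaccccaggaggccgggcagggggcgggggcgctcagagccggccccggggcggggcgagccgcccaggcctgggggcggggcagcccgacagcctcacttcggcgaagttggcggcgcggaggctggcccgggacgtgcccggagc

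After 48 h in culture Jag1, Hes1 and Rbpj were higher than in freshly isolated mDMCs, Notch1, Notch3, Jag2 and Hey1 were lower, and Notch2 did not pass the test. The changes of Jag2 were the largest, at 16.6-fold lower, and the rises were between 1.48-fold for Rbpj and 2.62-fold for Hes1. At 24, 36 and 48 h 3 of the 8 genes were higher and 4 lower, and after 12 h 3 were higher and 3 lower. These counts stand against a background in which most transcripts changed. Of all transcripts tested, 29.9% were higher and 28.3% lower after 12 h, 35% and 31.8% after 24 h, 36% and 34% after 36 h, and 37.1% and 34% after 48 h. The median change of the 8 genes after 48 h was −0.39 on the log2 scale, against 0.03 over all transcripts. In a moderated F test over the 4 culture times 7 of the 8 genes were called, all but Notch2, beside 80% of all transcripts.

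**Figure D1:**
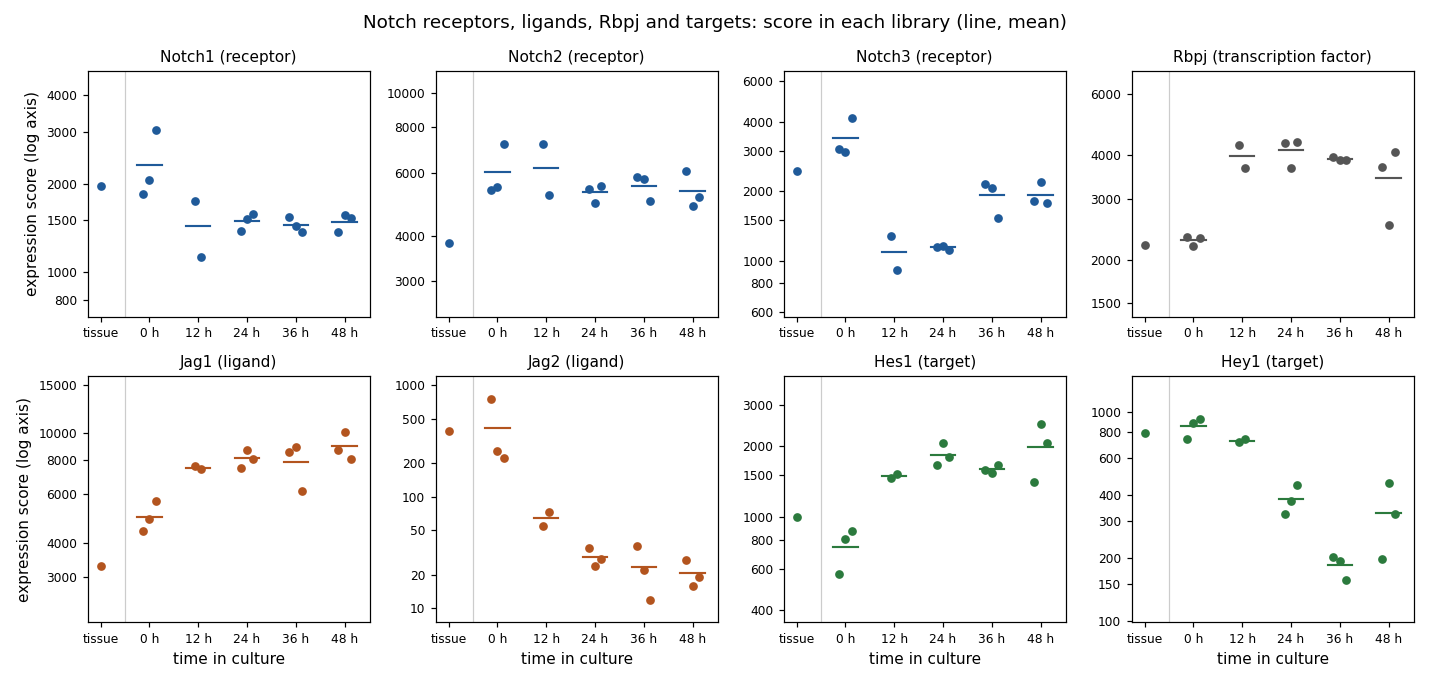
Expression score (log axis) of the 8 genes in every library, by time in culture, with dots for libraries, a line for the mean, and the single tissue library at the left. Jag2 lies between 223 and 754 at 0 h and between 12 and 73 in culture, and Hes1 between 570 and 870 at 0 h and 1412 and 2472 in culture.

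Notch1, a receptor that many cell types carry, was measured through transcript ENSMUST00000028288 (chromosome 2, 26457903 to 26503822, minus strand, 34 exons, 9488 nucleotides, protein-coding; coordinates are GRCm38). Its scores were 1837, 2057 and 3037 at 0 h, 1744 and 1121 after 12 h, 1380, 1514 and 1573 after 24 h, 1535, 1427 and 1364 after 36 h, and 1361, 1562 and 1519 after 48 h. Every cultured library was below every library at 0 h, and 0 h replicate 3 was the highest by far. Notch1 fell by 0.69 ± 0.20 (SE) on the log2 scale after 12 h (adjusted p = 0.00988), by 0.60 ± 0.18 after 24 h (adjusted p = 0.00954), by 0.65 ± 0.18 after 36 h (adjusted p = 0.00579) and by 0.61 ± 0.18 after 48 h (adjusted p = 0.00809). No step from one culture time to the next was called. The size of the fall rests in part on the libraries rich in long transcripts. Without 0 h replicate 3 alone, the change was −0.39 after 24 h (adjusted p = 0.0421) and −0.39 after 48 h (adjusted p = 0.0359), and without both such libraries it was −0.79 after 12 h and −0.39, −0.43 and −0.39 at 24, 36 and 48 h (adjusted p between 0.000492 and 0.00363). At 12 h the call was lost without replicate 2 of that time point (−0.37, adjusted p = 0.168) and when only the libraries of 0 and 12 h were fitted (adjusted p = 0.0872).

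Notch2, the receptor with the highest score of the 3, was measured through ENSMUST00000079812 (chromosome 3, 98013538 to 98150361, plus strand, 34 exons, 10500 nucleotides). Its scores were 5371, 5462 and 7185 at 0 h, 7185 and 5191 after 12 h, 5411, 4948 and 5520 after 24 h, 5821, 5757 and 4986 after 36 h, and 6053, 4847 and 5142 after 48 h. The groups overlapped at every time, and the 2 values of 7185 belong to the libraries rich in long transcripts. The log2 change after 48 h was −0.16, with a 95% interval from −0.47 to 0.15 (adjusted p = 0.324), and the intervals after 12, 24 and 36 h also held 0. Since the interval reaches −0.47, these data do not show that Notch2 stayed level.

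Notch3, a receptor known from mural cells of vessels and from mesenchyme, was measured through ENSMUST00000087723 (chromosome 17, 32120820 to 32166852, minus strand, 33 exons, 8016 nucleotides). Its scores were 3058, 2963 and 4150 at 0 h, 1277 and 916 after 12 h, 1150, 1164 and 1114 after 24 h, 2149, 2062 and 1539 after 36 h, and 1807, 2197 and 1775 after 48 h. All cultured libraries were below all libraries at 0 h, and all those at 36 and 48 h were above all those at 12 and 24 h. The fall was 3.10-fold after 12 h (−1.63 ± 0.18, adjusted p = 9.1e-06) and 2.93-fold after 24 h (−1.55 ± 0.16, adjusted p = 3.1e-06), and it was smaller after 36 h (−0.82 ± 0.16, adjusted p = 0.000627) and 48 h (−0.80 ± 0.16, adjusted p = 0.000706). The rise from 24 to 36 h was itself called, at 0.73 ± 0.16 (adjusted p = 0.0104), in a step in which 10% of transcripts were higher and 9.64% lower. With 36 h replicates 1 and 2 averaged into 1 library this step was 0.66 (adjusted p = 0.0489). Markers of pericytes, the mural cells of small vessels, did not move one way. Kcnj8, Abcc9 and Rgs5 fell, with log2 changes of −5.49, −5.12 and −3.94 after 48 h, Cspg4 and Mcam rose by 1.64 and 1.16, and Acta2, the actin of smooth muscle and myofibroblasts, rose to the top of the scale, so that the summed score of the 8 markers went from between 11405 and 13132 at 0 h to between 136001 and 144659 in culture. Their part in the values of Notch3 was not tested.

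**Figure D2:**
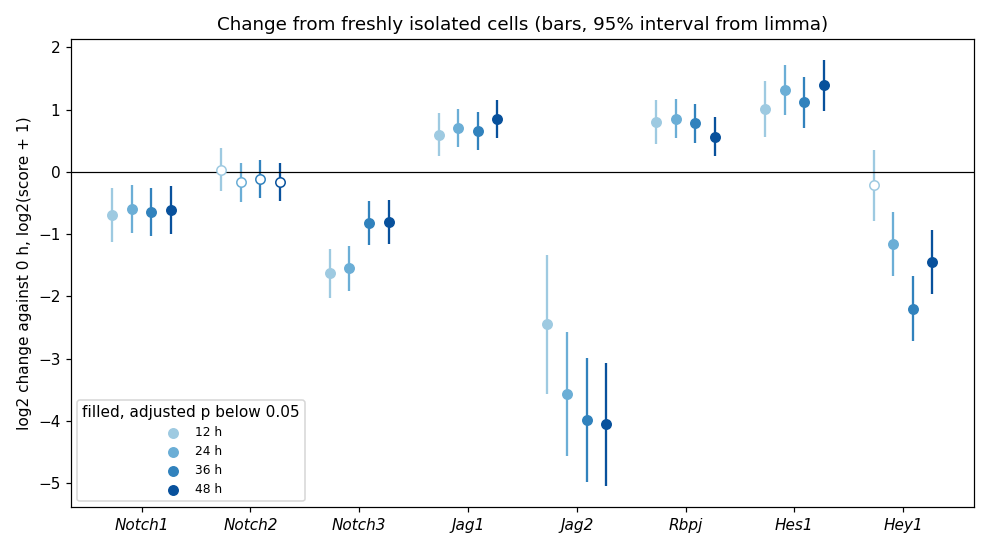
Log2 change of the 8 genes at 12, 24, 36 and 48 h against 0 h, on the log2(score + 1) scale, with 95% intervals from limma as bars and filled dots for an adjusted p below 0.05. Notch3 moves from −1.63 after 12 h to −0.80 after 48 h and Hey1 from −0.22 after 12 h to −2.19 after 36 h, while Notch2 stays unfilled throughout.

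Jag1 and Jag2, the Jagged ligands, moved in opposite directions. Jag1, a ligand of mesenchymal as well as epithelial cells, was measured through ENSMUST00000028735 (chromosome 2, 137081456 to 137116644, minus strand, 26 exons, 5612 nucleotides). Its scores were 4405, 4862 and 5671 at 0 h, 7590 and 7406 after 12 h, 7501, 8736 and 8093 after 24 h, 8523, 8945 and 6197 after 36 h, and 8736, 10090 and 8093 after 48 h. Every cultured library was above every library at 0 h. Jag1 rose 1.51-fold after 12 h (0.60 ± 0.16, adjusted p = 0.00553), 1.63-fold after 24 h (0.71 ± 0.14, adjusted p = 0.000615), 1.57-fold after 36 h (0.65 ± 0.14, adjusted p = 0.00105) and 1.80-fold after 48 h (0.85 ± 0.14, adjusted p = 0.000124). No later step was called.

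Jag2, a ligand best known from epithelia, was measured through ENSMUST00000075827 (chromosome 12, 112907819 to 112929776, minus strand, 26 exons, 5106 nucleotides). Its scores were 754, 257 and 223 at 0 h, 55 and 73 after 12 h, 35, 24 and 28 after 24 h, 36, 22 and 12 after 36 h, and 27, 16 and 19 after 48 h, and 386 in tissue. The groups were far apart, with the lowest library at 0 h above the highest in culture. Jag2 fell 5.47-fold after 12 h (−2.45 ± 0.51, adjusted p = 0.00123), 11.9-fold after 24 h (−3.57 ± 0.46, adjusted p = 1.7e-05), 15.8-fold after 36 h (−3.98 ± 0.46, adjusted p = 5.6e-06) and 16.6-fold after 48 h (−4.05 ± 0.46, adjusted p = 4.4e-06). In bulk libraries, fewer cells of a type and less RNA per cell cannot be told apart. The 9 epithelial markers with values had summed scores of 17198, 2191 and 2055 at 0 h and between 91 and 2908 in culture. Of these 9 markers 1 was lower after 12 h, 4 after 24 h, 7 after 36 h and 6 after 48 h, and none was higher. Of all transcripts 28.3%, 31.8%, 34% and 34% were lower at these times. The library with the highest Jag2, 0 h replicate 1, also had the highest epithelial sum, led by the keratins Krt14 and Krt5 at 5832 and 4573. The part of epithelial cells in the fall of Jag2 was not tested. Without that library the log2 change of Jag2 was −1.90 after 12 h (adjusted p = 0.00293) and −3.50 after 48 h (adjusted p = 9.5e-06), but the epithelial sums of 0 h replicates 2 and 3 were themselves above those after 36 and 48 h, which lay between 91 and 1232. At 12 h the epithelial sums of 2463 and 2908 were above those of 0 h replicates 2 and 3, while the Jag2 scores of 55 and 73 were below theirs.

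Rbpj, the DNA-binding protein through which all Notch receptors act on their targets, was measured through ENSMUST00000087360 (chromosome 5, 53555834 to 53657358, plus strand, 11 exons, 5252 nucleotides). Its scores were 2321, 2194 and 2314 at 0 h, 4277 and 3670 after 12 h, 4347, 3670 and 4380 after 24 h, 3965, 3889 and 3889 after 36 h, and 3700, 2515 and 4089 after 48 h. All cultured libraries were above all libraries at 0 h, and the lowest of them, 48 h replicate 2, came closest. Rbpj rose 1.74-fold after 12 h (0.80 ± 0.16, adjusted p = 0.00100), 1.81-fold after 24 h (0.86 ± 0.14, adjusted p = 0.000181), 1.72-fold after 36 h (0.78 ± 0.14, adjusted p = 0.000341) and 1.48-fold after 48 h (0.56 ± 0.14, adjusted p = 0.00364). The promoter printed above belongs to a start other than that of this transcript.

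The target genes Hes1 and Hey1 parted. Hes1, a basic helix-loop-helix repressor that also answers to other signals, was measured through ENSMUST00000023171 (chromosome 16, 30065340 to 30067796, plus strand, 4 exons, 1468 nucleotides). Its scores were 570, 803 and 870 at 0 h, 1455 and 1514 after 12 h, 1668, 2049 and 1789 after 24 h, 1580, 1538 and 1667 after 36 h, and 1412, 2472 and 2056 after 48 h. The lowest cultured library was above the highest at 0 h. Hes1 rose 2.02-fold after 12 h (1.01 ± 0.21, adjusted p = 0.00113), 2.48-fold after 24 h (1.31 ± 0.19, adjusted p = 4.1e-05), 2.17-fold after 36 h (1.11 ± 0.19, adjusted p = 0.000148) and 2.62-fold after 48 h (1.39 ± 0.19, adjusted p = 2.1e-05). It was the only one of the 8 genes to rise by more than 2-fold.

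Hey1, a related repressor and a target of Notch in vessels and mesenchyme, was measured through ENSMUST00000042412 (chromosome 3, 8663359 to 8667256, minus strand, 5 exons, 2423 nucleotides). Its scores were 743, 883 and 921 at 0 h, 714 and 740 after 12 h, 325, 373 and 448 after 24 h, 203, 194 and 158 after 36 h, and 198, 457 and 326 after 48 h. The values after 12 h lay just under the lowest at 0 h, those after 24 h were well below, and the mean was lowest after 36 h, where the libraries overlapped those after 48 h. The change after 12 h was not called (−0.22 ± 0.27, adjusted p = 0.509). Hey1 fell 2.23-fold after 24 h (−1.16 ± 0.24, adjusted p = 0.000823), 4.58-fold after 36 h (−2.19 ± 0.24, adjusted p = 3.2e-06) and 2.73-fold after 48 h (−1.45 ± 0.24, adjusted p = 0.000121). Among the steps, it was 0.94 ± 0.27 lower after 24 h than after 12 h (adjusted p = 0.0479), where 4.59% of transcripts were higher and 3.67% lower, and 1.04 ± 0.24 lower after 36 h than after 24 h (adjusted p = 0.0114). The first of these calls was marginal and was lost when any library of 0 h, of 12 h or of 36 h, 24 h replicate 1 or 2, or 48 h replicate 3 was left out (adjusted p between 0.0507 and 0.224), while the second was lost without 24 h replicate 3 (−0.92, adjusted p = 0.0524). From 36 to 48 h the change of 0.75 ± 0.24 did not pass the test (adjusted p = 0.210), and it did without 48 h replicate 1 (1.07, adjusted p = 0.0199). Only 0.0248% of all transcripts were called in that step, and none of the 8 genes was called there by limma, with 1, Hey1, at an unadjusted p under 0.05. Hes1 did not show such steps, with log2 changes of 0.30, −0.20 and 0.27 from each culture time to the next, none of them called. Whether the steps of Hes1 and Hey1 differ was not tested.

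Related genes were set against each other as a ratio within each library, which compares the receptors or ligands with one another whatever the scale of a library. The 3 libraries at 0 h were compared with the 11 cultured libraries by exact two-sided permutation (364 divisions, smallest possible p = 0.00549), and p-values were adjusted over the 4 pairs that had values. The test takes the 11 cultured libraries as independent and as 1 group, though they span 4 culture times. Replicates 1 and 2 after 36 h may be closer than separate cultures, and same-numbered libraries of 24 and 48 h correlated, as given further down. The log2 ratio of Jag1 to Jag2 was 3.81 ± 1.12 (SD, n = 3) at 0 h and 8.14 ± 0.77 (n = 11) in culture, a difference of 4.32 (p = 0.00549 by the exact test, adjusted p = 0.00733). Every cultured library was above every library at 0 h for Jag1 and below for Jag2. This p could thus only be the smallest possible, and it adds no support to the single-gene tests. The ratio of Notch2 to Notch3 was 0.83 ± 0.05 at 0 h and 1.88 ± 0.47 in culture, a difference of 1.05 (exact p = 0.00549, adjusted p = 0.00733), with time point means of 2.50, 2.21, 1.54 and 1.47 from 12 to 48 h. The ratio of Notch1 to Notch2 went from −1.40 ± 0.15 to −1.92 ± 0.18, a difference of −0.52 (exact p = 0.00549, adjusted p = 0.00733). In these pairs the libraries at 0 h did not overlap those in culture. That of Notch1 to Notch3 overlapped, from −0.57 ± 0.15 to −0.04 ± 0.42 (exact p = 0.0440, adjusted p = 0.0440). Its time point means were 0.37, 0.38, −0.40 and −0.38, so the ratio differed from 0 h mainly at 12 and 24 h. Its call was lost when any library of 0 h, of 12 h or of 24 h, 36 h replicate 3, or 48 h replicate 1 or 3 was left out (adjusted p between 0.0513 and 0.205), with differences between 0.45 and 0.59.

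**Figure D3:**
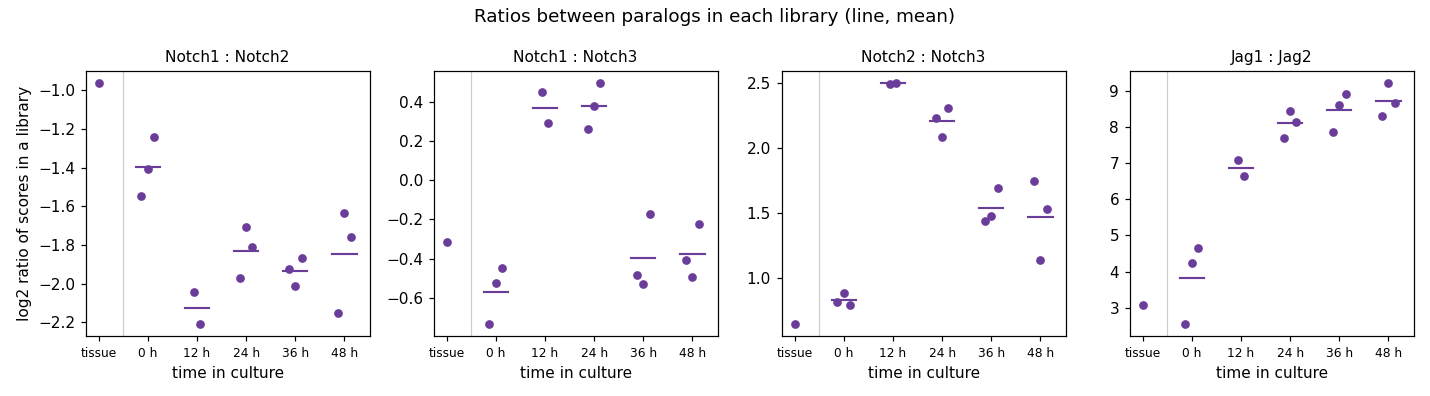
Log2 ratio of the scores of related genes within each library, by time in culture, with dots for libraries and lines for means. Jag1 to Jag2 runs from between 2.54 and 4.66 at 0 h to between 6.65 and 9.21 in culture, and Notch2 to Notch3 peaks after 12 h with 2.49 and 2.50.

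The single tissue library, which was not digested to single cells, was set beside the range of the 3 libraries at 0 h without a test. Notch1 at 1959, Jag2 at 386, Hey1 at 794 and Rbpj at 2209 lay within that range. Notch2 at 3817, Notch3 at 2441 and Jag1 at 3286 lay below it, by 0.64, 0.46 and 0.59 on the log2 scale against the mean at 0 h, and Hes1 at 1001 lay above it, by 0.44. For Jag1 and Hes1 the order was thus tissue, 0 h and culture for the one, and 0 h, tissue and culture for the other.

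Per kilobase of transcript, which allows levels of different genes to be set side by side, Jag1 was the highest of the 8 genes at 0 h with 887 ± 114 (SD, n = 3). Notch2 at 572 ± 97.3, Hes1 at 509 ± 107, Rbpj at 433 ± 13.6, Notch3 at 423 ± 82.3, Hey1 at 350 ± 38.7 and Notch1 at 244 ± 67.3 followed, and the libraries of each overlapped those of the next. Jag2 was the lowest at 80.6 ± 58.2, without overlap with Notch1. The step that made the scores is not known, and where it already allowed for length this order would not hold. At 48 h the score per kilobase of Jag1 was 1599 ± 182 and that of Hes1 1349 ± 364, followed by Rbpj at 654 ± 156, Notch2 at 509 ± 59.9, Notch3 at 240 ± 29.3, Notch1 at 156 ± 11.2, Hey1 at 135 ± 53.4 and Jag2 at 4.05 ± 1.11.

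The other genes of the pathway, 55 by a list of receptors, ligands, modifiers, proteases and nuclear partners, had 48 members with values. Of these, 11 were higher and 19 lower after 12 h, 8 and 21 after 24 h, 12 and 21 after 36 h, and 10 and 20 after 48 h, with a median log2 change of −0.30 after 48 h against 0.03 over all transcripts. Set against the shares of all transcripts given earlier, fewer of the listed genes were higher and more were lower at each of the 4 times, and this difference was not tested. The numbers higher after 12 and 24 h moved when single libraries were left out, as given in the closing section. Of the 9 genes of receptor cleavage, 3 were higher and 2 lower after 12 h, 4 and 2 after 24 h, 4 and 1 after 36 h, and 5 and 0 after 48 h by limma, where 37.1% of all transcripts were higher and 34% lower. Of those not called after 48 h, Aph1b passed an unadjusted p under 0.05 (−0.27, adjusted p = 0.0551). Among those that rose were Aph1a (0.65 ± 0.09, adjusted p = 4.1e-05) and Psenen (0.39 ± 0.09, adjusted p = 0.00114), subunits of gamma-secretase, and Furin (0.48 ± 0.15, adjusted p = 0.0104), the protease that trims the receptor. The ADAM proteases Adam10 (−0.19, adjusted p = 0.163) and Adam17 (−0.14, adjusted p = 0.274) were not called after 48 h. After 24 h the Adam17 scores of 1480, 1339 and 1318 were below those at 0 h, 2075, 2034 and 1572. Of the 16 nuclear partners and corepressors, 9 were lower after 48 h, beside 34% of all transcripts, and none was higher by limma at an adjusted or an unadjusted p under 0.05. No test of these groups was run.

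**Figure D4:**
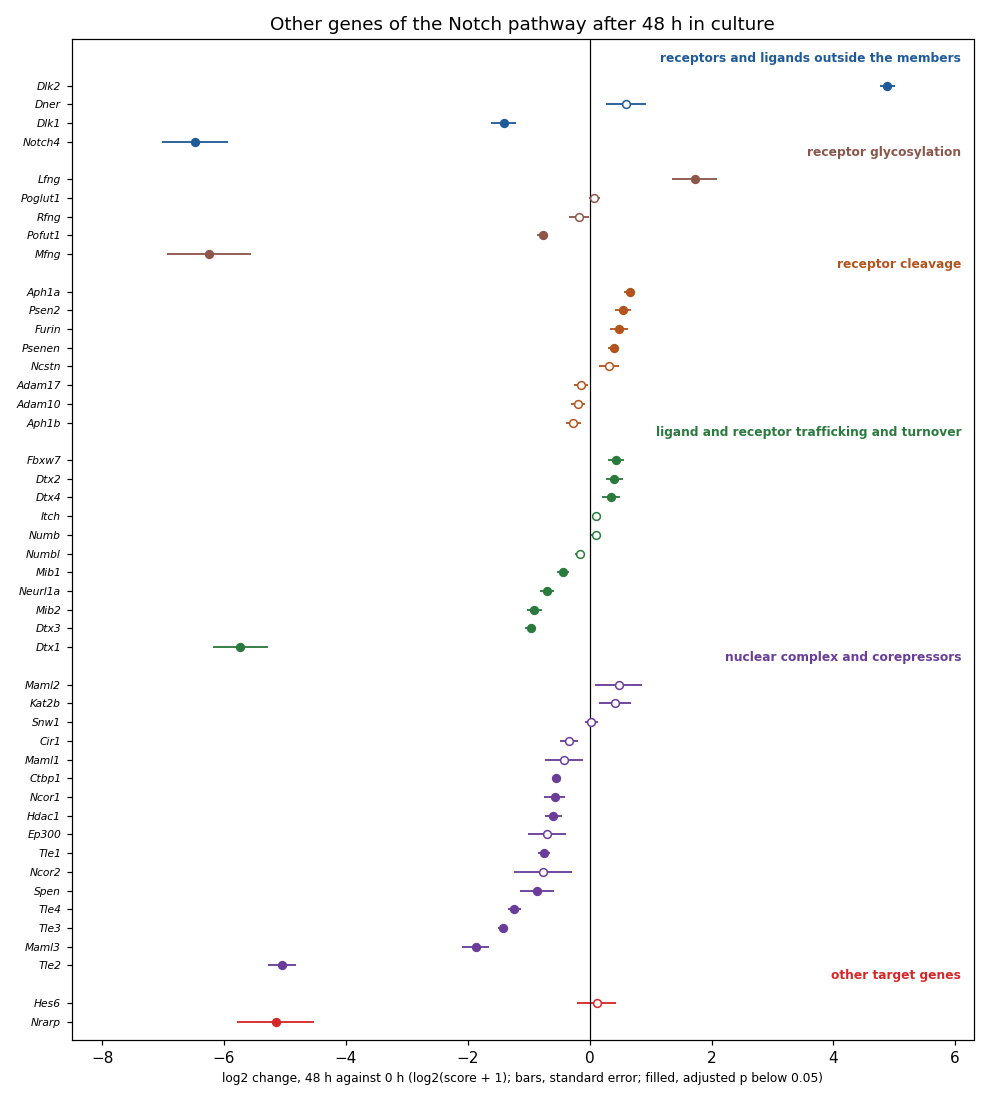
Log2 change after 48 h against 0 h of 46 further Notch pathway genes, in 6 groups, with standard errors as bars and filled dots for an adjusted p below 0.05. Dlk2 stands at 4.89 and Lfng at 1.72, Notch4, Mfng, Dtx1, Nrarp and Tle2 lie beyond −5, and Dll4 is left out because it is listed at 0 in all libraries after 48 h.

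Of the 16 genes listed for the nuclear complex and its corepressors, 9 were lower and 0 higher after 48 h by limma, beside 34% lower and 37.1% higher of all transcripts tested, with 11 lower and 0 higher at an unadjusted p below 0.05. The list holds 4 Groucho corepressors, proteins that Hes and Hey factors recruit to silence their targets. Tle2 had scores of 788, 812 and 734 at 0 h and between 15 and 59 in culture (−5.05 ± 0.24 after 48 h, adjusted p = 1.7e-09). Tle3 went from between 2688 and 3183 to between 909 and 1202 (−1.42 ± 0.08, adjusted p = 1.4e-08), and Tle4 from between 894 and 1149 to between 413 and 502 (−1.24 ± 0.11, adjusted p = 4.4e-07). Tle1 went from between 3010 and 3288 to between 1353 and 2060 (−0.75 ± 0.09 after 48 h, adjusted p = 1.2e-05). The tissue library was also below every library at 0 h for each of them, at 2314 for Tle1, 522 for Tle2, 1896 for Tle3 and 748 for Tle4. Maml3, a Mastermind coactivator of Notch and Rbpj, fell from 640, 611 and 1030 to between 179 and 421 (−1.87 ± 0.22, adjusted p = 6.9e-06), whereas Maml1 (−0.42, adjusted p = 0.247) and Maml2 (0.47, adjusted p = 0.290) were not called. At 0 h replicate 3 stood highest, with 631, 674 and 1524 for Maml1 and 116, 163 and 344 for Maml2. After 48 h Maml1 had 736, 595 and 613, and Maml2 had 292, 271 and 222. Their changes without that replicate are not given.

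Dlk2, a Delta-like protein without the domain that binds Notch in the usual way, and Lfng, the Lunatic fringe enzyme that adds sugar to Notch receptors, were the listed genes that rose by more than 1 on the log2 scale after 48 h with a call at all 4 times. Dlk2 had scores of 27, 26 and 21 at 0 h, 1121 and 1097 after 12 h, and between 677 and 1121 at the later times (4.89 ± 0.13 after 48 h, adjusted p = 1.2e-11). Lfng had 182, 71 and 41 at 0 h, 413 and 425 after 12 h, and between 240 and 429 later (2.35 ± 0.41 after 12 h, adjusted p = 0.000328, and 1.72 ± 0.37 after 48 h, adjusted p = 0.00100). Mfng, the Manic fringe enzyme, was at 90, 129 and 73 at 0 h and between 0 and 2 in culture, opposite to Lfng.

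Notch4 and Dll4, a receptor and a ligand of the endothelium, were near 0 in every cultured library. Notch4 had scores of 397, 482 and 438 at 0 h, 387 in tissue and between 1 and 9 in culture (−6.47 ± 0.55 after 48 h, adjusted p = 3.1e-07). Dll4 was at 113, 229 and 203 at 0 h and 254 in tissue, at 1 in both libraries after 12 h, and listed at 0 in every library at 36 and 48 h. Nrarp, a feedback inhibitor and target of Notch, went from 226, 163 and 125 to between 0 and 7 (−5.15 ± 0.63 after 48 h, adjusted p = 9.4e-06), and Dtx1, a Deltex ubiquitin ligase and target, from 197, 208 and 219 to between 1 and 6 (−5.74 ± 0.45, adjusted p = 1.7e-07). At scores this near 0 the fitted changes depend on the pseudocount of 1. Endothelial markers moved with these genes. Of the 10 measured, 9 fell and 1 rose at each of the 4 times. Of all transcripts, 28.3% to 34% were lower and 29.9% to 37.1% higher at these times. The summed score of the 10 markers was between 10971 and 12972 at 0 h, 15668 in tissue and between 2029 and 4018 in culture. Cldn5, a junction protein of vessels, went from 688, 745 and 468 at 0 h to 0 in all libraries from 24 h on, and Pecam1 from between 1953 and 2544 to between 7 and 18 after 48 h. The marker that rose was Flt1, a receptor of vascular growth factors, from between 677 and 912 to between 1386 and 3325, and it made up most of the endothelial sum in culture. The part of endothelial cells in the values of Notch4, Dll4, Nrarp, Dtx1, Mfng, Notch1 and Hey1 was not tested.

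**Figure D5:**
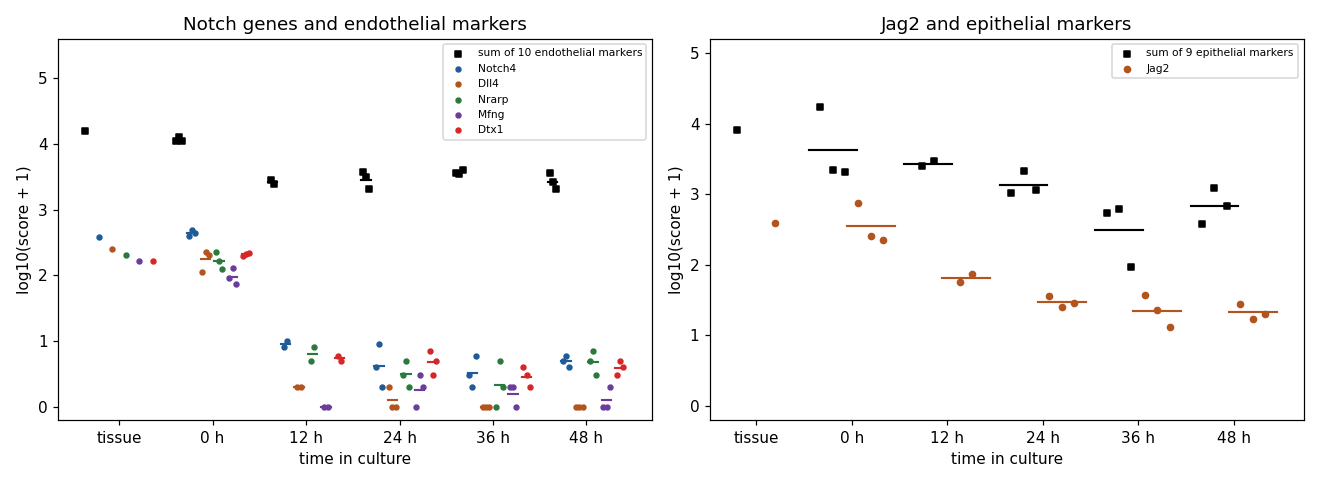
Left, log10(score + 1) of Notch4, Dll4, Nrarp, Mfng and Dtx1 beside the sum of 10 endothelial markers, and right, Jag2 beside the sum of 9 epithelial markers, in every library, with short lines for means. The 5 genes at the left lie between 73 and 482 at 0 h and at 9 or less in every cultured library, and at the right 0 h replicate 1 is highest in both Jag2 (754) and the epithelial sum (17198).

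For the 4 genes with the widest range of time point means, the transcripts with the most similar course over the 14 libraries of cells were found by the root mean square difference of log2 values centred on each gene's own mean. For Jag2 they were Corin, Asb4 and Col25a1, at 0.45, 0.46 and 0.48, and Col25a1 went from a mean of 2239 at 0 h to 84.7 after 48 h. For Hey1 they were Rac3, Hist1h4a and Cplx2, at 0.29, 0.29 and 0.31, all lowest after 36 h, where the mean of Rac3 was 118 against 563 at 0 h. Hist1h4a is one of several near-identical histone genes, so its value is uncertain. For Notch3 they were 4931406C07Rik, Fam53b and Vwa8, at 0.21, 0.21 and 0.22, and Fam53b had means of 495, 140, 131, 252 and 293 from 0 to 48 h. For Hes1 they were Gemin7, Slco3a1 and Praf2, at 0.17, 0.17 and 0.18. The likeness was read from the same libraries and describes them only.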

How the data were processed

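RNA-seq of 15 libraries was analysed, 14 of mDMCs and 1 of tissue. The authors trimmed the reads, aligned them with bowtie to the mouse transcriptome (mm10, Ensembl annotation) and estimated expression with RSEM (version 1.1.21 in the submitters' processing notes, while the paper's methods give another). The deposited table gives each transcript a score, a whole number labelled as cpm, whose library totals (21357605 to 21365980) are too large for that unit. All libraries share one distribution, and the step that made it is not given in the sources used here. A change in total RNA therefore cannot be seen, the sequencing depth is unknown and no counting interval can be given.

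Transcript identifiers were matched to GENCODE genes of GRCm38 (11973 of 12089 matched, 116 not). Scores were analysed as log2(score + 1) by limma 3.58.1 under R 4.3.3. The 14 libraries of mDMCs entered 1 fit, with a mean for each time and an intensity trend. Transcripts had to hold 1 ppm of a library in 2 or more libraries. Standard errors and 95% intervals are limma's, and a fold is 2 to the power of the log2 change, which understates the change of low genes. The design had foreseen a count test in case the table held counts, and it did not. Ratios of related genes were tested in Python 3.11.15 with scipy 1.17.1. Of 7 listed pairs, 4 had values, and the 3 with Hey2 or Heyl had none. Simulated data were used to test the limma fit.

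The genes and lists were chosen with earlier results of these data known. Named genes were the 10 chosen genes, those of the other pathway genes called at all 4 culture times in 1 direction with a change over 1 on the log2 scale at 48 h (11 genes, up to 12 allowed), and the 3 most similar transcripts of the 4 genes with the widest range. Other genes named, such as those of receptor cleavage, the markers and the Mastermind genes, were chosen after their values were seen. The result of 1 further pathway gene is not reported here. Alternatives were other pseudocounts (0.1 and 10), other filters, scaling by a trimmed mean of log ratios between libraries, no trend, a fit of only the compared times, the replicate number as a block, an unadjusted p below 0.05 with a fold above 2, and each library left out. The averaging of 36 h replicates 1 and 2 and the removal of the libraries rich in long transcripts were added after the data were seen. Of the marker lists, 3 of 6 macrophage markers had values (summed scores 733 to 917 at 0 h, 287 to 677 in culture), and none of 4 glial markers had.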

Additional observations from a re-analysis of the deposited data

How the results depend on the processing

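The calls of Notch3, Jag1, Jag2, Hes1 and Rbpj against 0 h at all 4 times, those of Notch1 at 24, 36 and 48 h, and those of Hey1 at 24, 36 and 48 h kept their direction and stayed past the threshold under each alternative tried except the rule of an unadjusted p below 0.05 with a fold above 2. That rule asks for a larger change, and left 1 gene higher at each of the 4 times (Hes1), 2 lower at 36 h and 2 lower at 48 h (Jag2 and Hey1), and 0 higher from 24 to 36 h. Under it the other pathway genes numbered 3, 2, 3 and 2 higher and 12, 12, 11 and 10 lower at 12, 24, 36 and 48 h. The shares of all transcripts were not computed under this rule or the other alternatives, so these counts have no background beside them. Notch1 at 12 h lost its call with only the compared time points (adjusted p = 0.0872), a fit that left 6 other pathway genes higher at 12 h. The count of genes lower at 24 h than at 12 h, 1 (Hey1), became 0 with only the compared time points, with no intensity trend, without the libraries rich in long transcripts, and with 36 h replicates 1 and 2 as 1 library. With each library left out in turn it ranged from 0 to 1, as did the count lower from 24 to 36 h and that higher from 36 to 48 h, while the other pathway genes higher ranged from 6 to 13 at 12 h and from 5 to 9 at 24 h. Without the libraries rich in long transcripts 7 were higher at 12 h.

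The difference in the ratio of Notch1 to Notch3 ranged from 0.45 to 0.59 with each library left out, at an adjusted p up to 0.205, and was 0.44 for 0 h against 24, 36 and 48 h (adjusted p = 0.0727) and 0.54 without the libraries rich in long transcripts (adjusted p = 0.0606), by exact permutation tests. With 1 of the libraries at 0 h left out the smallest unadjusted p is 0.0256.

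Small changes that were never called changed sign. With each library left out, the log2 change of Notch2 ranged from −0.20 to 0.27 at 12 h and from −0.19 to 0.024 at 36 h against 0 h, from −0.44 to 0.026 between 12 and 24 h, and from −0.14 to 0.018 between 36 and 48 h. That of Notch1 ranged from −0.23 to 0.41 between 12 and 24 h and from −0.00246 to 0.097 between 36 and 48 h, that of Notch3 from −0.16 to 0.32 and from −0.13 to 0.11 in the same steps, that of Rbpj from −0.054 to 0.17 between 12 and 24 h, that of Jag1 from −0.16 to 0.11 between 24 and 36 h, and that of Jag2 from −0.46 to 0.29 between 36 and 48 h. Without the libraries rich in long transcripts Notch2 was at −0.061 at 12 h, 0.024 at 36 h and 0.026 between 12 and 24 h, and with 36 h replicates 1 and 2 as 1 library Jag2 was at 0.10 between 36 and 48 h. The cause was not tested.

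The replicate numbers were not shown to pair the libraries of any times compared here, since 9 of 26 same-numbered pairs had a correlation of deviations over 0.1 (range −0.37 to 0.44) and 14 correlated best with their own number. Between 24 and 48 h, which were not compared with each other but were pooled in the ratio tests, all 3 pairs did so, at 0.35, 0.39 and 0.34. With the replicate block the 8 genes numbered 3 higher and 4 lower at 48 h, and the other pathway genes 10 higher and 22 lower. The share of all transcripts was not computed with the block. The filter of 1 ppm in all 14 libraries left no value for Jag2. Since the depth of the libraries is unknown, the precision of low scores such as those of Jag2 in culture cannot be given.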
